A study of Mus musculus with 6 samples.

Results

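The miR-30 family is a set of microRNAs (miRNAs, short non-coding RNAs that pair with messenger RNAs and lower their output). Its guide strands on the array were mmu-miR-30a, mmu-miR-30b, mmu-miR-30c, mmu-miR-30d and mmu-miR-30e (the prefix, for mouse, is left out from here on), which were chosen by name, so that 5 of the 611 mouse miRNAs on the array are described here. The RNA came from mouse embryonic stem (ES) cells of the line EB3, of 129/Ola background, and each sample was labelled with Cy3 and hybridised to 1 single-colour Agilent mouse miRNA array. The sample titles give 3 samples with Activin and 3 control samples without it. Activin, a signalling protein related to TGF-beta, is widely used to direct ES cells towards mesendoderm and endoderm. The labels give a dose of 10 ng/ml for 3 days of growth as embryoid bodies and for 15 further days on gelatin, 18 days in all. The labels carry this culture text for all 6 samples, so they do not settle whether the control cells were undifferentiated ES cells or were differentiated without Activin. Nor do they say whether the samples of a group were separate cultures, so the p-values cover only how far these samples differ among themselves, possibly for technical reasons.

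A miRNA finds its targets mainly through its seed, the bases near its 5′ end, and the miR-30 guide strands carry a common seed and are therefore thought to share many targets. In epithelial cells the family is known to repress Snai1, a transcription factor of the epithelial-mesenchymal transition, and it has been studied in kidney, heart and pancreatic islets. Each hairpin also yields a passenger strand from its other arm, which usually has its own seed and its own targets.

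The mature sequences are shown because the members differ in few bases, which matters for reading array probes. RefSeq (GRCm38.p6) gave a sequence for 3 of the 5 members and for miR-384-5p, a miRNA with the same seed from another hairpin. They run 5′ to 3′, with the seed (bases 2 to 8) in capitals.
miR-30a: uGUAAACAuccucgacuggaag
miR-30c: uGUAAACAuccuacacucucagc
miR-30e: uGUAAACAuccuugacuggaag
miR-384-5p: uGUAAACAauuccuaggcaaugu

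These were the 4 mature mouse names in the table, of 1679, that carry this seed of 7 bases. The first 12 bases were the same in miR-30a, miR-30c and miR-30e, and miR-384-5p shared the first 8 of them. With positions counted from 1 at the 5′ end, miR-30a and miR-30e differed by C13U alone, and were identical at 21 of 22 positions. The changes that lead from miR-30a to miR-30c were C13A, G14C, G18C, G19U and A20C, which left 17 of 22 positions identical. Binding of one member to a probe of another was not tested.

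The genes lie on 3 chromosomes. Mir30a has Mir30c-2 as its nearest miRNA gene on chromosome 1, Mir30b and Mir30d are each other's nearest on chromosome 15, and Mir30c-1 and Mir30e both lie within Nfyc on chromosome 4. Mir30c-1 and Mir30c-2 give the same mature miR-30c, so their output cannot be told apart on the array. The Mir30a hairpin is shown because its guide arm was detected on every array and its passenger arm on none, with the guide arm (positions 6 to 27) and the passenger arm (positions 47 to 68) in capitals.
Mir30a: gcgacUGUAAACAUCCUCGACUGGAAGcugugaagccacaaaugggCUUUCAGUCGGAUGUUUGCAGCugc

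Each member was read by 20 spots per array, spread over 3 probes for miR-30a and 2 probes for each other member, 11 probes in all. A spot value is a background-subtracted intensity on a linear scale. A probe was called detected when the scanner software marked more than 0.5 of its unflagged spots as well above background, and a miRNA was called detected on the strength of any 1 detected probe. The arrays differed in brightness: the 75th percentile of intensity over the 59 probes detected on every array was 569.6, 177 and 554 on activin 1, 2 and 3, against 249, 616 and 427 on control 1, 2 and 3. Activin 2 and control 1 were thus the dim arrays, and their spread between replicate spots lay outside the software's accepted range. The software's labelling control lay outside its range on all 6 arrays, and its hybridisation control lay within it on all 6. Activin 2 and control 1 detected 54 and 80 mouse miRNAs, while the other 4 arrays detected 110 to 119. All 6 arrays were on 1 slide, with control 1, 2 and 3 and activin 1 in slide row 1 and activin 2 and 3 in slide row 2, so slide row and group overlap in large part.

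The markers measured beside the family describe the cells. Of 19 ES cell miRNAs (the miR-290 and miR-302 groups), 5 were detected on all activin arrays and 5 on all control arrays, and of 8 mesenchymal miRNAs 5 were detected on all activin arrays and 6 on all control arrays. Of 7 epithelial miRNAs 1 was detected on all activin arrays and 2 on all control arrays. No neural (5), striated muscle (6) or endothelial (2) miRNA was detected on all arrays of either group. Of 7 haematopoietic, 4 liver and gut and 2 pancreatic islet miRNAs, none was detected on any array. The summed scaled signal of the mesenchymal list was 3.72 to 3.93 on activin arrays and 2.55 to 3.41 on control arrays, and that of the ES cell list was 5.95 to 7.66 on activin arrays and 6.29 to 16.1 on control arrays. The part of these lists in the miR-30 values was not tested.

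Across the family, miR-30a was well above background on all 6 arrays and the other members were near or at background on most. By majority of spots, 1 member was detected on each activin array, and 1, 3 and 1 members were detected on control 1, 2 and 3. The extra detections were miR-30c and miR-30e on control 2. Over the 6 arrays, 89 of 575 unflagged member spots were well above background, and for miR-30a alone the counts were 32 of 59 spots on activin arrays and 32 of 59 on control arrays. For comparison, 53 of all 611 mouse miRNAs, or 8.67%, were detected on every array. By majority of spots, 19.5%, 8.84% and 18.0% of all mouse miRNAs were detected on activin 1, 2 and 3. On control 1, 2 and 3 these shares were 13.1%, 19.5% and 18.2%.

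**Figure D1:**
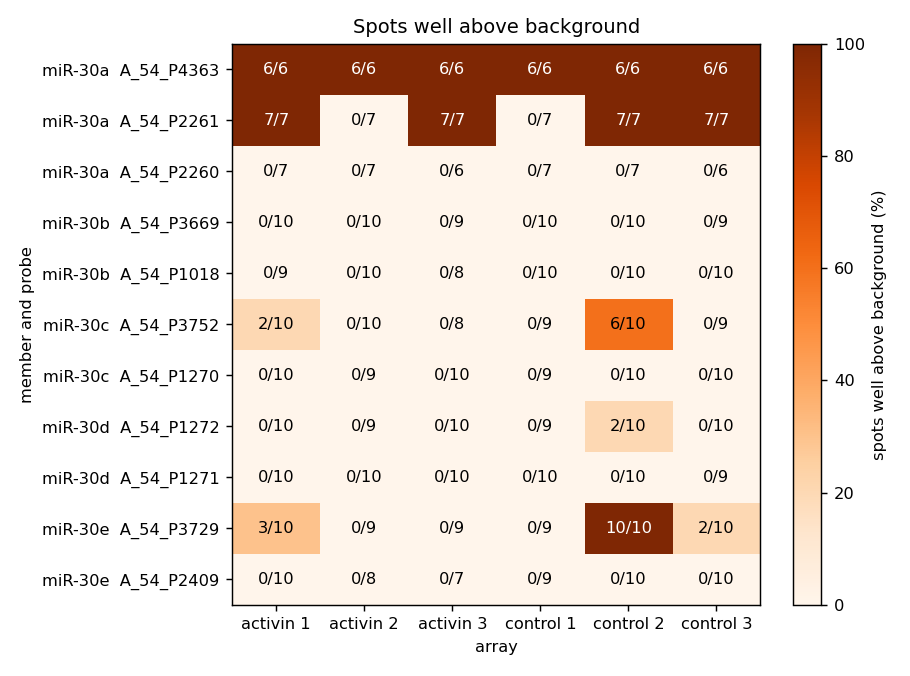
Unflagged spots well above background for each of the 11 miR-30 probes (rows) on each array (columns), written as spots above over spots read and shaded by percent. One miR-30a probe has 6 of 6 spots above background on every array, a second has 7 of 7 on the 4 brighter arrays and 0 of 7 on activin 2 and control 1, and the rest of the family reaches a majority on control 2 only.

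miR-30a was the member that could be compared between groups. Its mean intensity over probes was 102, 34.7 and 88.9 on activin 1, 2 and 3, against 28.3, 111 and 69.97 on control 1, 2 and 3. After division by each array's percentile, its scaled signal was 0.180, 0.196 and 0.160 with Activin, against 0.114, 0.181 and 0.164 in control. Before scaling the dim arrays were the lowest of each group, and after scaling activin 2 was the highest of all. The activin arrays lay close to control 2 and control 3, and control 1 lay below all others, so the groups overlapped.

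On the log2 scale of the scaled signal, miR-30a averaged -2.49 ± 0.14 in activin samples and -2.74 ± 0.35 in control samples (SD, n = 3 each). The log2 fold change, Activin minus control, was 0.25 with a standard error of 0.29 and a 95% interval of -0.33 to 0.83, which is a fold of 1.19 (0.794 to 1.78). In the limma fit over the 79 mouse miRNAs detected on every array of at least 1 group, its p was 0.399 and its Benjamini-Hochberg adjusted p 0.659. No difference in miR-30a was therefore detected. The same fit called 1 of the 79 miRNAs, or 1.27%, at an adjusted p under 0.05 (9 at an unadjusted p under 0.05). This was miR-302c, named after its value was seen, which was higher with Activin (log2 fold change 1.23). It is on the ES cell list, whose other tested miRNAs had values from -0.74 to -0.37, none of them called. Of the members 1 was tested and 0 were called.

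The difference in miR-30a was ordinary among the tested miRNAs. Their median log2 fold change was 0.17, with quartiles of -0.12 and 0.32, and 50 of them lay above 0. Relative to that median, miR-30a differed by 0.08. It stood at place 47 of 79 by p. The groups did not overlap in 14 of the 79, or 17.7%, and miR-30a was not among these. Its spread within groups (pooled SD 0.27) was near the median of 0.31 for all tested miRNAs.

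**Figure D2:**
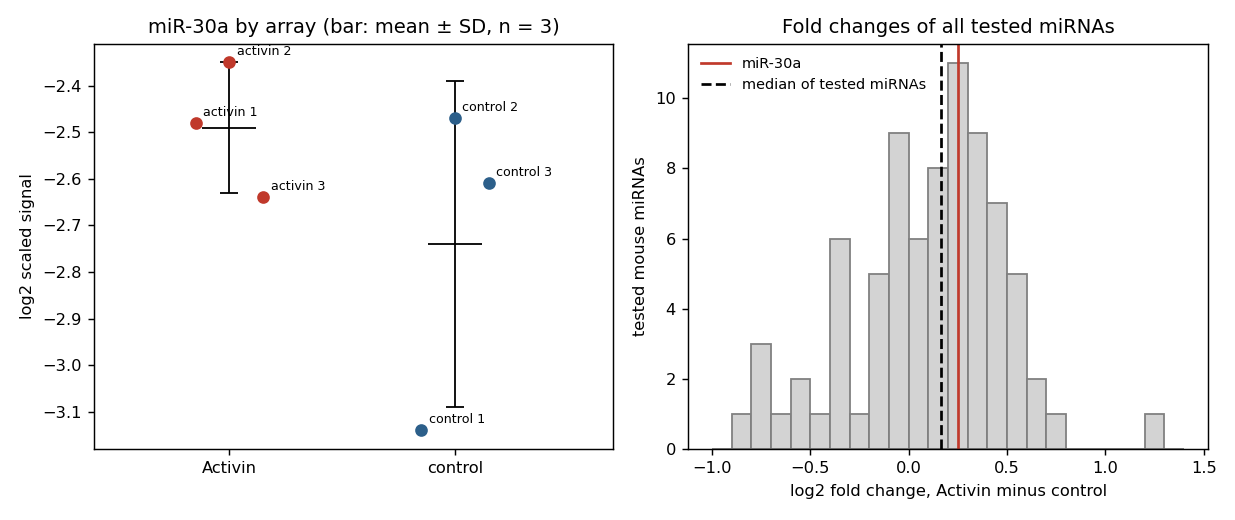
Left, the log2 scaled signal of miR-30a on each array with the mean and SD of its group (n = 3), where the activin arrays lie between -2.64 and -2.35 and control 1 lies apart at -3.14. Right, the number of tested mouse miRNAs by log2 fold change, Activin minus control, with miR-30a (0.25, solid line) near the median of all 79 (0.17, dashed line).

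The difference depended on the dim arrays and on the scaling. Without control 1 the log2 fold change of miR-30a was 0.05, without activin 2 it was 0.02, and without both it was 0.01. Leaving out control 2 gave 0.38. With every array kept, it was 0.02 under spike-in scaling, 0.07 under quantile scaling and 0.17 without scaling. Scaling by the median of detected probes gave 0.09, and so did the 75th percentile of all probes. Normexp background correction in place of the software's own turned the value to -0.34. Within slide row 1 the difference was 0.26, from activin 1 alone against the control arrays, control 1 included. With 1 activin array in that row, the part of slide row could not be tested. Within slide column 1 (activin 2 against control 1, the dim arrays) the difference was 0.78. Within slide column 2 (activin 3 against control 2) it was -0.17, each from 1 array a side and without a test. A fit that blocks on slide column gave 0.31, an estimate that rests on those columns alone. Activin 1 and control 3 had no array of the other group in their columns. None of the settings with a test put miR-30a past the threshold.

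The 3 probes of miR-30a differed in how often they were detected. The first, A_54_P4363, had intensities of 231, 90.6 and 219 on activin arrays, against 71.4, 260.0 and 165 on control arrays, with all 6 of its spots well above background on each array. Scaled, these were 0.405, 0.511 and 0.395 with Activin and 0.287, 0.422 and 0.387 in control. Its spots also scattered more on the dim arrays, where the coefficient of variation was 23.5% on activin 2 and 28.7% on control 1, against 6.64% to 10.9% on the others.

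The second probe, A_54_P2261, had 68.9, 13.4 and 49.7 intensity units on activin arrays, against 15.3, 66.7 and 44.5 on control arrays. All 7 of its spots were well above background on the 4 brighter arrays and none was on activin 2 or control 1. Scaled, the probe was 0.121, 0.0754 and 0.0897 with Activin, against 0.0613, 0.108 and 0.104 in control. Activin 2 was thus the highest array for A_54_P4363 but not for this probe. The third, A_54_P2260, stayed at -1.76 to 7.23 units with no spot well above background on any array.

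Only A_54_P4363 could be tested as a probe. Its log2 fold change was 0.27 (95% interval -0.31 to 0.85), with a limma adjusted p of 0.683 over the 105 probes tested. That fit called 1 of the 105 probes, or 0.952%, and the miR-30a probe was not the one. Without activin 2 its value was -0.02.

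miR-30e differs from miR-30a by 1 base. Well above background were 3 of its 53 spots on activin arrays and 12 of 58 on control arrays. Its mean intensity was 15.8, 3.27 and 14.0 on activin arrays, against 2.63, 22.2 and 14.4 on control arrays. Its probe A_54_P3729 had 30.7, 8.99 and 30.1 units with Activin, against 6.75, 41.3 and 28.9 in control. The 2 dim arrays were the low ones in both groups, and control 2 was the high one. On control 2 all 10 spots of this probe were well above background, on activin 1 3 spots were and on control 3 2 spots were.

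The scaled signal of miR-30e was 0.0277, 0.0185 and 0.0253 on activin arrays, against 0.0105, 0.0360 and 0.0339 on control arrays. The means were 0.0238 ± 0.0048 and 0.0268 ± 0.0141 (SD, n = 3 each), and the control range enclosed the activin range. miR-30e was detected on 0 of 3 activin arrays and 1 of 3 control arrays, so it was not tested. No fold is given, since the control mean of -4.87 (log2, after the floor of -4.94) lay below the bound of -4.46 that detection on the activin arrays allows. These values include the other probe, A_54_P2409, which read -2.44 to 3.07 units with no spot well above background. A_54_P3729 alone, scaled, was 0.0539, 0.0507 and 0.0543 with Activin, against 0.0271, 0.0671 and 0.0678 in control. That probe was detected on control 2 alone and was not tested.

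miR-30c, which 2 genes produce, had mean intensities of 13.5, 4.86 and 10.8 on activin arrays, against 4.77, 14.9 and 9.65 on control arrays. Its probe A_54_P3752 gave 26.9, 9.80 and 22.1 units with Activin and 8.65, 27.3 and 20.5 in control. This order again largely followed the brightness of the arrays. On control 2, 6 of 10 spots of that probe were well above background, on activin 1 2 of 10 were, and the other 4 arrays had none.

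Scaled, miR-30c was 0.0237, 0.0274 and 0.0194 with Activin, against 0.0192, 0.0243 and 0.0226 in control. The means were 0.0235 ± 0.00402 and 0.0220 ± 0.00260 (SD, n = 3 each), a gap smaller than the spread within either group. All 6 values lay under the floor of 0.0326, so they have no order on the log2 scale and no fold is given. They average A_54_P3752 with A_54_P1270, which read -1.16 to 2.57 units with no spot well above background. A_54_P3752 alone, scaled, was 0.0472, 0.0553 and 0.04 with Activin, against 0.0348, 0.0443 and 0.0479 in control, above that floor. That probe was detected on control 2 alone, so it was not tested either.

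Both probes of miR-30d gave a weak signal. Its mean intensity was 19.7, 6.38 and 13.35 on activin arrays, against 9.80, 21.02 and 17.2 on control arrays. Probe A_54_P1272 gave 22.7, 8.002 and 15.3 units on activin arrays, against 10.8, 26.0 and 20.5 on control arrays. Probe A_54_P1271 gave 16.6, 4.75 and 11.4 units with Activin, against 8.83, 16.1 and 14.0 in control. Activin 2 was the lowest array for both probes, and the highest was control 2 for A_54_P1272 and activin 1 for A_54_P1271.

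The scaled signal of miR-30d was 0.0345, 0.0360 and 0.0241 with Activin, against 0.0394, 0.0341 and 0.0404 in control. The means were 0.0315 ± 0.00648 and 0.0380 ± 0.00336 (SD, n = 3 each), and the groups overlapped. Well above background were 0 of 59 spots on activin arrays and 2 of 58 on control arrays, so miR-30d was detected on none of the 6. The software's weaker call of a positive and significant spot was met by 43 of 59 spots with Activin and 56 of 58 in control. By array these were 20 of 20, 7 of 19 and 16 of 20 spots on activin 1, 2 and 3, against 17 of 19, 20 of 20 and 19 of 19 on control 1, 2 and 3. Most of the spots that missed this call with Activin were thus on activin 2, a dim array.

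miR-30b had mean intensities of 0.761, 1.45 and -1.17 on activin arrays, against 0.444, 2.83 and -0.730 on control arrays. No spot was well above background among 56 with Activin and 59 in control. The mean intensities scatter about 0, and nothing was measured of miR-30b beyond that its signal was not well above background. Probe A_54_P3669 read -0.421 to 6.69 units and probe A_54_P1018 -5.17 to 3.08. The weaker call of a positive and significant spot was met by 11 of 56 spots with Activin and 11 of 59 in control.

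**Figure D3:**
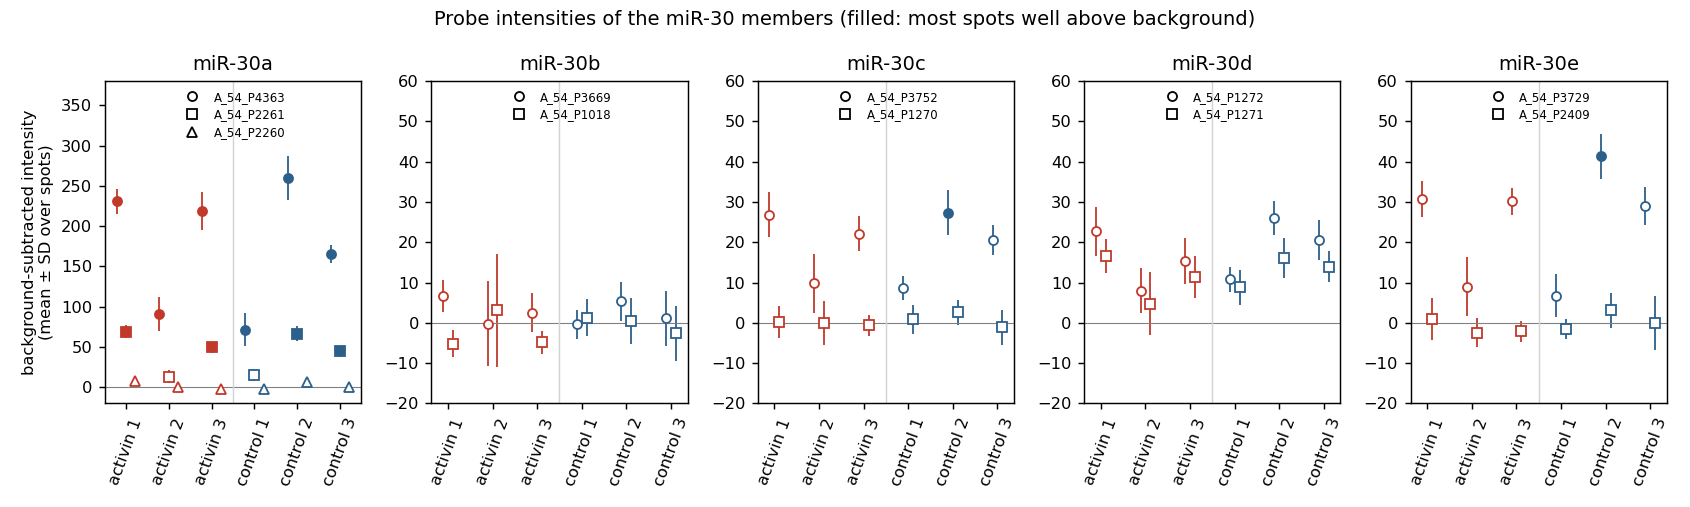
Background-subtracted intensity (mean and SD over spots, linear axis) of every miR-30 probe on each array, with activin arrays left and control arrays right, filled symbols for probes with most spots well above background, and a wider axis for miR-30a. The miR-30a probe A_54_P4363 runs from 71.4 to 260.0 over the arrays and the miR-30e probe A_54_P3729 from 6.75 to 41.3, each lowest on the dim arrays activin 2 and control 1.

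The miR-30a probe A_54_P4363 was the member probe above background on both dim arrays, so its loss of signal there could be measured. The mean of activin 2 and control 1 was 0.37 of that of the other 4 arrays for this probe, and 0.394 for the 75th percentile used for scaling. That mean hides a difference between the dim arrays. Scaled, the probe was highest of all on activin 2 (0.511) and lowest of all on control 1 (0.287).

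How many members count as detected depended on the call. The software's own call per miRNA gave 4, 1 and 2 members on activin arrays, against 1, 4 and 4 on control arrays. A rule of at least 1 spot well above background gave 3, 1 and 1 with Activin and 1, 4 and 2 in control, and a rule of every spot gave 1, 1 and 1 with Activin and 1, 2 and 1 in control. Detection of all 611 mouse miRNAs varied by array in a like way. The software's call gave 24.2%, 12.4% and 21.4% of them on activin arrays, against 16.9%, 25.04% and 23.6% on control arrays. The rule of at least 1 spot gave 22.6%, 13.4% and 19.8% with Activin and 17.0%, 23.6% and 22.6% in control, and the rule of every spot gave 18.7%, 6.55% and 15.5% with Activin and 9.98%, 17.2% and 15.7% in control. Under all 3 rules activin 2 and control 1 were the lowest arrays for all miRNAs. Summed over arrays, the members had 16, 12 and 7 detections, against 8 by majority of spots. Under each of the 4 rules 1 member, miR-30a, was detected on all 6 arrays, and activin 2 and control 1 detected miR-30a alone.

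The other arms of the hairpins were not detected where the array held them, and it held no probe for miR-30d*. The array held 5 passenger strands, miR-30a*, miR-30b*, miR-30c-1*, miR-30c-2* and miR-30e*, and miR-384-5p, on 16 probes. Of their 700 unflagged spots 0 were well above background, and their probe means ran from -5.24 to 10.12 units. miR-30a*, the passenger arm of the hairpin printed above, read 3.92, 0.894 and 3.44 units on activin arrays, against 1.11, 3.77 and 3.59 on control arrays.

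The tested miRNAs whose log2 values ran most like those of miR-30a over the 6 arrays were miR-331-3p (Pearson's r 0.945), miR-199b* (0.942), miR-26a (0.919), miR-21 (0.890) and miR-342-3p (0.884). The median r of the 78 tested miRNAs with miR-30a was 0.607, and all these values share the arrays and their scaling. Each of these 5 was lowest on control 1, as miR-30a was. Without control 1 and activin 2, the arrays farthest from the median of miR-30a, r over the 4 arrays left was 0.663, 0.584, 0.667, -0.345 and -0.126 in the same order, so the likeness rested largely on those arrays. The log2 fold changes of the 5, Activin minus control, were 0.40, 0.25, 0.31, 0.30 and 0.51, and none passed the threshold (adjusted p 0.427 to 0.659). With a single member tested, no likeness among the members could be given.

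**Figure D4:**
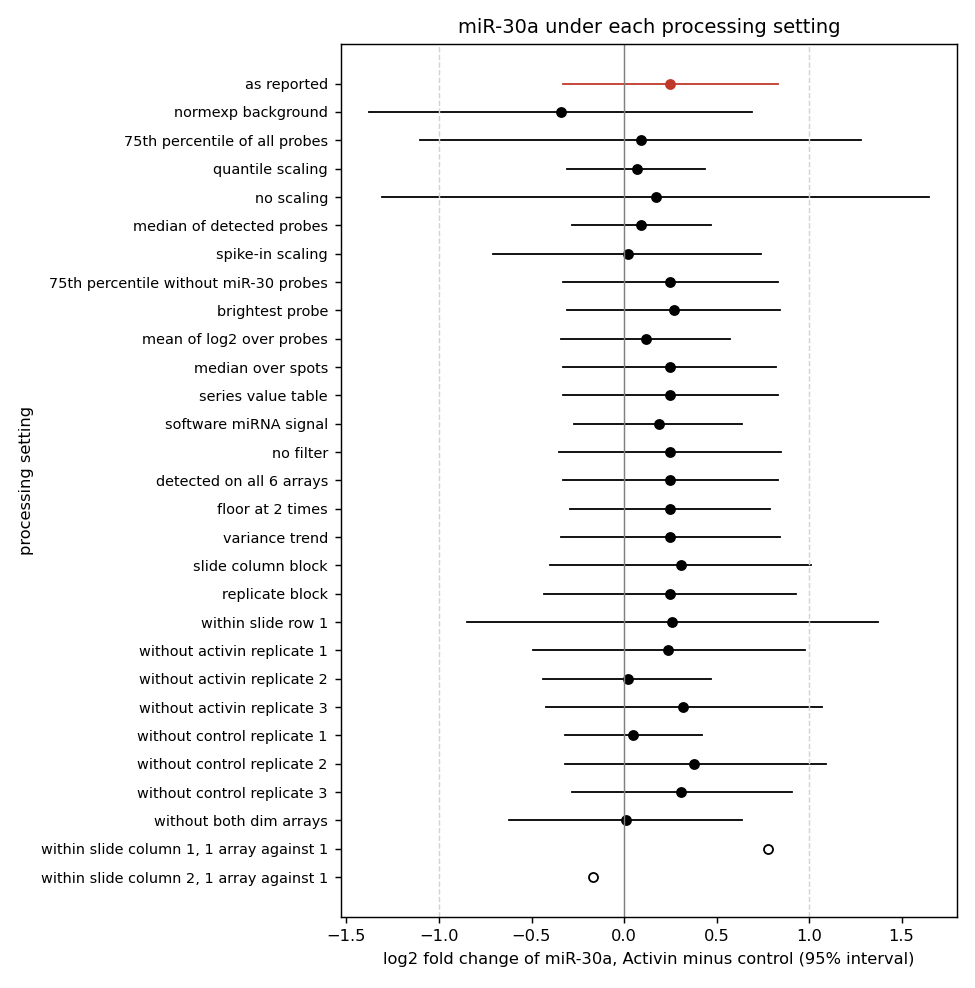
Log2 fold change of miR-30a, Activin minus control, with its 95% interval under each processing setting, the value as reported on top and open symbols for single arrays compared within a slide column. Every interval spans 0, and the values with a test run from -0.34 to 0.38.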

How the data were processed

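Per the labels' protocols, 100 ng of total RNA per sample was labelled. The deposited scanner files hold linear background-subtracted intensities per spot, from Agilent Feature Extraction 10.7.3.1 per the file headers and 10.1.1 per the submitters' processing notes; these differ. The deposited series table held the same intensity values, uncentred. Flags, and the software's signal and detection call per miRNA, are the authors' deposited calls.

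Unflagged spots were averaged per probe, then per miRNA, divided by each array's 75th percentile over 59 probes detected on all arrays, given a floor of 0.0326 (-4.94 in log2), taken from percentile 1 of detected miRNAs as a median over arrays, and converted to log2. The test covered 79 mouse miRNAs with detection in every array of a group, and ran in limma 3.58.1 (R 4.3.3, lmFit and eBayes, two-sided, Benjamini-Hochberg over all 79, threshold 0.05). Variances were pooled almost fully (194 prior degrees of freedom), so standard errors ran from 0.293 to 0.310. The bound for an undetected miRNA is, per array, the higher of the lowest detected signal and its own. No miRNA spot was saturated. Normexp (offset 50) used median signals, the files holding no mean signal column. The test was checked on simulated data, with larger changes than that of miR-30a and without dim arrays or a floor. That check does not show how well a change of the size seen in miR-30a would be found. Figures used matplotlib 3.10.9.

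The members, relatives and marker lists were chosen with earlier results of these data known. The named miRNAs are the 5 members, their passenger strands, miR-384-5p and the 5 tested miRNAs with the highest Pearson's r with miR-30a; miR-302c was added after its value was seen. The array names mm9, so the RefSeq table served for names, neighbours and sequences, without coordinates.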

Additional observations from a re-analysis of the deposited data

How the results depend on the processing

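Under 26 alternatives with a test, miR-30a stayed short of the threshold (adjusted p 0.428 to 0.997), and its log2 fold change, Activin minus control, was above 0 in 25. Normexp background correction turned it, and with it the median of the members, to -0.34 (adjusted p 0.94), and the cause was not tested. The 95% interval excluded a change of 1 (log2) in 19 alternatives and reached it in 7. Leaving out 1 array at a time gave 0.02 to 0.38. For the probe A_54_P4363 the range was -0.02 to 0.38, the lowest without activin 2. Within slide column 1 (activin 2 against control 1) miR-30a differed by 0.78 and within slide column 2 (activin 3 against control 2) by -0.17, with 1 array a side and no test. A slide column block gave 0.31, an estimate that rests on those columns alone. Slide row 1 alone gave 0.26, from activin 1 against the control arrays. Without the filter the median of the 3 members not at the floor throughout was -0.07. The software's detection call gave 16 detections over arrays, against 8. The count of all tested miRNAs past the threshold, 1 as reported, was 0 under normexp, the percentile of all probes, quantile scaling, no scaling, spike-in scaling, the brightest probe, the mean of log2 values, the median over spots, the software's signal, no filter, detection on all 6 arrays, a floor 2 times higher, slide row 1 alone, and without both dim arrays, and 0 to 1 with 1 array left out. The scaled signals of miR-30b, miR-30c, miR-30d and miR-30e are near background, and the size of their differences moved with the scaling, which sets the unit. For miR-30b and miR-30c the sign moved as well. The difference of miR-30d was below 0 in every setting computed. That of miR-30e was too, except without control 2 or without control 3. None of these differences was tested. After each group's mean was removed, same-numbered samples correlated at -0.643, -0.0949 and 0.343 over the tested miRNAs. Samples with different numbers ran from -0.615 to 0.664. With 3 arrays a group, these values do not settle whether the numbers pair the samples. The replicate block in limma gave miR-30a 0.25 (adjusted p 0.772). Signal over background left 4 of the 5 members without a test or a fold, and 3 arrays a group limit the precision for miR-30a.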
